A study of Mus musculus with 15 samples.

Results

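The SLAM family receptors were examined in RNA-sequencing of cultured bone marrow mesenchymal stromal cells (MSCs) from mice with and without the taurine transporter TauT, which is encoded by *Slc6a6*. The family was taken as 8 genes chosen by name, *Slamf1*, *Slamf6*, *Slamf7*, *Slamf8*, *Slamf9*, *Cd48*, *Cd84* and *Ly9*, and all 8 were found among the 56832 genes counted. *Slamf7* was included in the knowledge that the study names it among genes higher in TauT-/- MSCs in these same data. *Cd244a*, a SLAM gene outside these 8 and the receptor for CD48, was followed beside them.

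The 15 libraries were 4 TauT+/+ and 4 TauT-/- libraries labelled male, and 3 TauT+/+ and 4 TauT-/- libraries labelled female. The mice were 16 weeks old and of C57BL/6J background, and the TauT-/- mice lacked the transporter in all tissues, so that loss was not limited to MSCs. Marrow of the long bones was cultured in medium without ascorbic acid, and the labels call the sorted fraction CD45-. The methods give removal of cells bearing CD45, Ter119 or CD31 with magnets, or flow sorting, as the route. The labels name no agent for either genotype. The labels do not tie a library to a mouse, so p-values measure the spread among these libraries, which may in part be technical.

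SLAM receptors are immunoglobulin-type proteins on the surface of blood cells. Most bind their own kind on a neighbouring cell, while CD48 and CD244 bind each other. The tails of most members carry tyrosine motifs that take up the small adaptors SAP (*Sh2d1a*) and EAT-2 (*Sh2d1b1*), or the phosphatases SHP-1 (*Ptpn6*) and SHIP-1 (*Inpp5d*) in their place. CD48 has no tail of its own and is held by a lipid anchor, and SLAMF8 and SLAMF9 have short tails without these motifs. In bone marrow, SLAMF1 (CD150), CD48 and CD244 are used to sort haematopoietic stem cells, and several members are known on macrophages. They are not textbook MSC genes.

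All 8 members lie in a stretch of 1002 kb on mouse chromosome 1 (GRCm39, chr1:171416173-172418178). *Ly9*, *Slamf7*, *Cd48*, *Slamf1*, *Cd84* and *Slamf6* follow each other from 171416173 to 171780737, and *Slamf9* (172297192 to 172307889) and *Slamf8* (172409325 to 172418178) stand at the far end. *Ly9* lies inside *Cd244a* (171386708 to 171437315) on the opposite strand, with no exon shared. Exons of *Slamf7* overlap the antisense gene *Gm37787*, which had at most 0.0695 CPM (reads scaled to a common library size, with TMM factors), and those of *Slamf6* overlap *Gm37065*, with at most 0.0102 CPM. The counting is stated to use strand.

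The sequences from 250 bases before to 50 bases after the start of the canonical transcript in GENCODE M39 are shown for *Slamf7*, which had the largest fitted change among the 7 tested members, and for *Slamf8*, the member with a negative fitted change. They read 5′ to 3′ along the gene and come from GRCm39. For both genes this start lies inside the outer bounds of the gene, since other transcripts begin further upstream. Capitals mark TTCCTC, the reverse complement of GAGGAA, the core recognised by the myeloid factor PU.1. The *Slamf7* window spans chr1:171476531-171476830 on the minus strand and the *Slamf8* window chr1:172418086-172418385 on the minus strand.
Slamf7: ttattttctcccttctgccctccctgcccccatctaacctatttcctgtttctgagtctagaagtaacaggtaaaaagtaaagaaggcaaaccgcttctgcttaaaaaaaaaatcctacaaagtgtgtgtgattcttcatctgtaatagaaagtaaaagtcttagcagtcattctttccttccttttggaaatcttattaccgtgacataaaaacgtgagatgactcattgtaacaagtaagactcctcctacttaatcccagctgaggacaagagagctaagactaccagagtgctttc
Slamf8: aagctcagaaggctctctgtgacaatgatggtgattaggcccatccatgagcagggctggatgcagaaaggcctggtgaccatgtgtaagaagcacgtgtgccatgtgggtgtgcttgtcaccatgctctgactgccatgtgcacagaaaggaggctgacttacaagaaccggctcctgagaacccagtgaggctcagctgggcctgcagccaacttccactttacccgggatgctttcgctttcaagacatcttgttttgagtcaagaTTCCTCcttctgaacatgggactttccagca
On either strand, GAGGAA was found in 3 of the 9 SLAM gene windows, that of *Slamf8* among them, and in 27.5% of the 21757 windows of protein-coding genes searched in the same way. The window of *Slamf7* did not hold it. The interferon response core was in 1 of the 9 windows (*Slamf8*, not capitalised) and in 3.84% of all windows, and the ETS-IRF composite element in 0 of the 9 and in 2.97% of all.

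The total was 69764291 to 101575071 counts under the male label and 12761107 to 20781070 under the female label, so the sex label and depth cannot be told apart. A count of 3 reads, the limit that a count of 0 allows, corresponded to 0.0305 to 0.229 CPM, and such limits cover counting error only. *Slc6a6* had 592 to 2591 CPM (median 1712) in TauT+/+ and 401 to 1521 CPM (median 747) in TauT-/- libraries, so the genotypes overlapped in the gene that defines them (log2 fold change −0.97, SE 0.36, edgeR adjusted p = 0.125), and libraries are called by their labels. Which part of the gene the knockout removes was not examined. Sex-linked genes contradicted the sex label in 3 libraries (TauT+/+ male 1, TauT-/- male 1 and TauT+/+ female 3). The first male-labelled and the first female-labelled library of each genotype were closer to each other than any other libraries were (spread of log2 ratios over 11373 genes of 0.109 in TauT-/- and 0.121 in TauT+/+, against 0.277 for the next pair). They were kept as separate libraries, and results are also given without them.

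The MSC list was well expressed, with a summed level of 28104 to 47509.9 CPM (median 31743) in TauT+/+ libraries. In TauT-/- libraries the sum was 6221 to 40447 CPM (median 20626). Of its 14 genes, 4 had a positive and 10 a negative log2 fold change (median −0.46), and 0 were called. *Ptprc*, which encodes the CD45 that the sort selected against, was present in all libraries, at 27.9 to 179 CPM in TauT+/+ and 114 to 370 CPM in TauT-/- cells. Of 24 macrophage genes, 22 were tested, 20 had a positive and 2 a negative log2 fold change, and 1 (*Cd68*) was called by edgeR (log2 fold change 1.46, adjusted p = 0.0445), while 0.546% of all tested genes were called higher. That call held in 3 of 15 fits without 1 library and was lost with no filter (adjusted p = 0.0549) and with no sex term (adjusted p = 0.0510). The sum of the list was 1485 to 11022 CPM (median 8610) in TauT+/+ and 6902 to 22213 CPM (median 15962) in TauT-/- libraries. *Adgre1*, which encodes the macrophage marker F4/80, had 1100.1 CPM in TauT+/+ female 3 and 3375 CPM in TauT-/- female 4, against 34.4 to 742 CPM in the other 13 libraries. Some defining genes of other blood cells were at or near 0. *Cd3e* (T cells) and *Ncr1* (NK cells) had 0 reads in all 15 libraries, *Jchain* (plasma cells) had at most 0.322 CPM and *Flt3* (dendritic cells and progenitors) at most 0.138 CPM. *Pecam1*, the CD31 of endothelium, ranged from 0.0796 to 6.46 CPM. The summed lists held more. The T cell list summed to 3.32 to 22.6 CPM in TauT+/+ and 7.97 to 68.97 CPM in TauT-/- libraries, the endothelial list to 6.87 to 18.99 and 10.7 to 109.8 CPM, the dendritic cell list to 6.06 to 17.1 and 7.01 to 43.4 CPM, and the neutrophil list to 9.05 to 38.7 and 3.51 to 83.2 CPM. The osteoclast list summed to 103 to 498 and 67.9 to 835 CPM and the megakaryocyte list to 16.6 to 95.8 and 11.7 to 143 CPM, in the same order. The progenitor list reached 22.7 CPM, the plasma cell list 10.1 CPM, the B cell list 6.62 CPM, the NK cell list 2.50 CPM, and the erythroid and mast cell lists 0.576 and 0.517 CPM. None of these lists held a called gene, and the part of such cells in the values below was not tested. In these bulk libraries, fewer cells of a type and less RNA per cell cannot be told apart.

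Genotypes were compared by edgeR's quasi-likelihood test with the sex label in the model, over 17204 genes, and a gene was called at a Benjamini-Hochberg adjusted p under 0.05. Of the 8 members, 7 had enough reads to be tested and 0 were called, while 0.546% of all tested genes were called higher and 0.75% lower in TauT-/- cells. Before adjustment, 4 members (*Slamf7*, *Cd48*, *Cd84* and *Ly9*) had p under 0.05, as did 23.6% of all tested genes. The fitted log2 fold change was positive for 6 members and negative for *Slamf8*, with a median of 0.94 over the 7 members and −0.02 over all tested genes. DESeq2 on the same model, the test that the study itself used, called 3 members higher (*Slamf7*, *Cd48* and *Cd84*). It called 5.82% of its 16708 genes higher, and it gave no adjusted p for *Slamf6* and *Slamf8*.

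**Figure D1:**
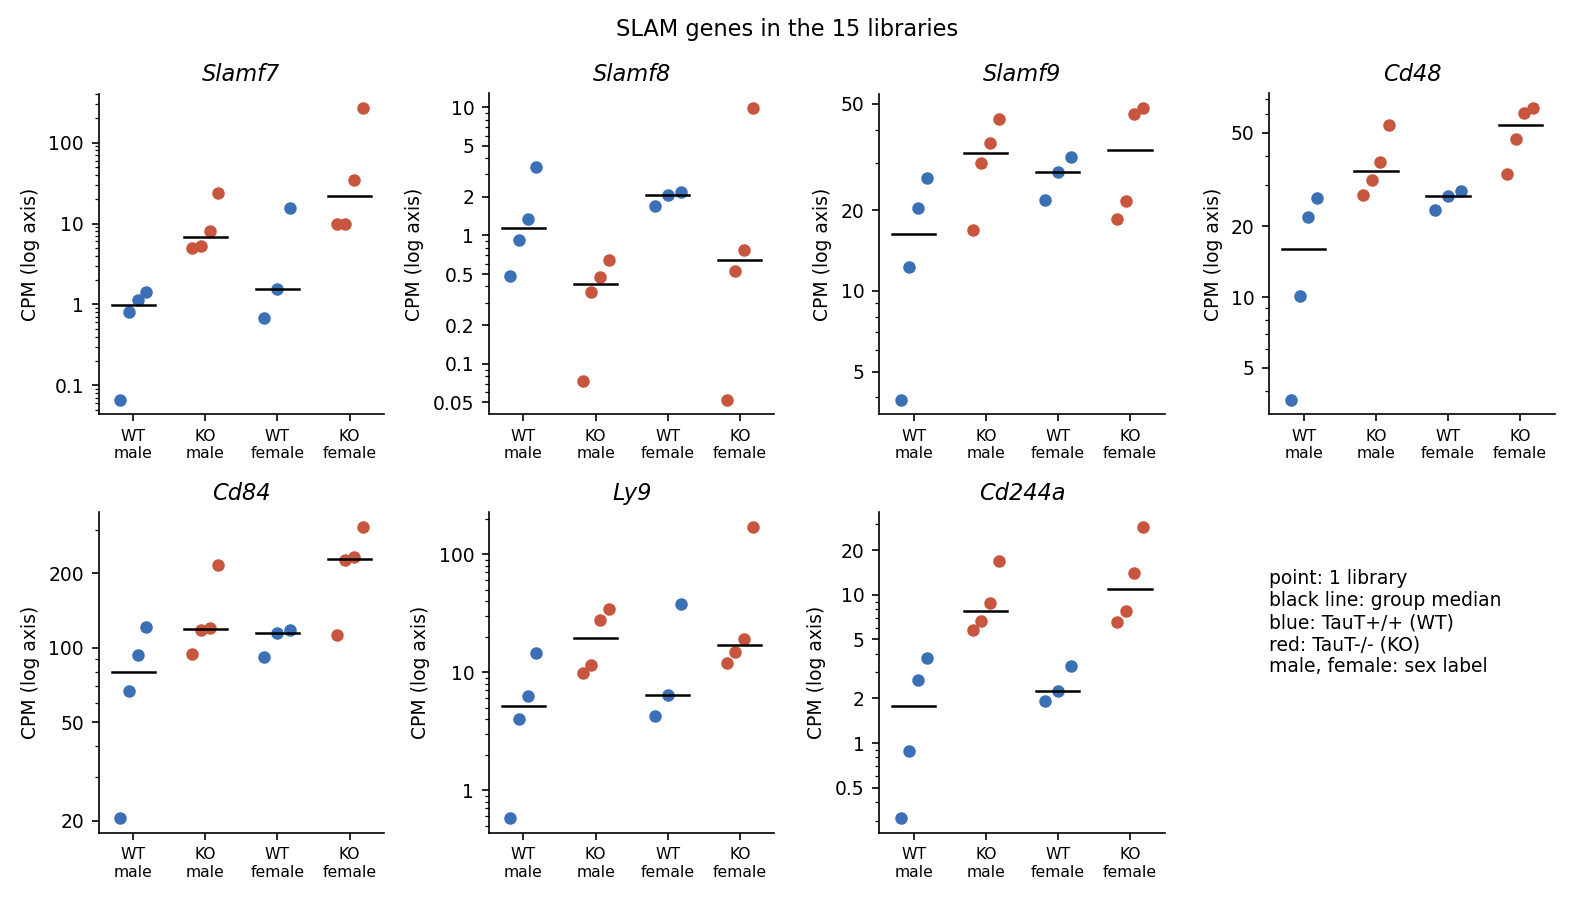
CPM (log axis) of 6 members and *Cd244a* in each library, by genotype and sex label, with the median of each group as a black line. *Cd244a* is higher in all 8 TauT-/- libraries (5.82 CPM or more) than in any TauT+/+ library (3.76 CPM or less), *Slamf7* is apart except for TauT+/+ female 3 at 15.7 CPM, and *Slamf8* is at 0.764 CPM or less in 7 TauT-/- libraries and at 9.85 CPM in TauT-/- female 4.

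*Slamf7* encodes a receptor known from NK cells, plasma cells and activated macrophages, which signals through EAT-2. Under the male label its level in order of library number was 1.43, 0.0667, 1.15 and 0.807 CPM with TauT and 8.14, 5.35, 5.04 and 24.1 CPM without it. Under the female label it was 1.55, 0.689 and 15.7 CPM with TauT and 9.95, 9.84, 34.4 and 267 CPM without it. Thus 6 of the 7 TauT+/+ libraries were below all TauT-/- libraries, the exception being TauT+/+ female 3. Its sex-linked genes contradicted its label, which concerns sex and does not check the genotype. *Slc6a6* was at 1289 CPM in TauT+/+ female 3, within the range of both genotypes. TauT+/+ male 1 (1.43 CPM of *Slamf7*) and TauT-/- male 1 (8.14 CPM) also contradicted their sex label. Both lay on the side of their genotype. The mean of *Slamf7* over TauT+/+ libraries was 3.05 ± 5.58 CPM (SD, n = 7), and over TauT-/- libraries it was 45.4 ± 90.0 CPM (SD, n = 8). The fitted log2 fold change was 3.68 (SE 0.92), and its edgeR adjusted p of 0.0597 missed the threshold.

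TauT-/- female 4 held 73.4% of the summed TauT-/- level of *Slamf7*. Without it the mean was 13.8 ± 11.1 CPM (SD, n = 7) and the fitted log2 fold change 2.76 (edgeR adjusted p = 0.0949). Without TauT+/+ female 3 the log2 fold change was 4.50 (edgeR adjusted p = 0.0770). DESeq2 gave a log2 fold change of 3.70 with an adjusted p of 0.00029, and limma's voom gave 3.34 with an adjusted p of 0.0335. The direction was the same under both sex labels, with a log2 fold change of 3.63 (SE 1.28) for male-labelled and 3.73 (SE 1.44) for female-labelled libraries. The labels may not be separate repeats, since the first male-labelled and the first female-labelled library of each genotype were nearly alike. The female-labelled value rested on single libraries, at 1.58 without TauT-/- female 4 and 6.22 without TauT+/+ female 3.

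*Cd48* and *Cd244a* encode a ligand and its receptor. Under the male label the level of *Cd48* in order of library number was 26.4, 3.66, 21.8 and 10.1 CPM with TauT and 27.2, 31.5, 37.5 and 53.8 CPM without it. Under the female label it was 27.0, 23.4 and 28.3 CPM with TauT and 33.5, 47.2, 60.6 and 63.8 CPM without it. All TauT-/- libraries but TauT-/- male 1 were above the highest TauT+/+ library. The mean was 20.1 ± 9.47 CPM (SD, n = 7) against 44.4 ± 13.97 CPM (SD, n = 8), and the fitted log2 fold change was 1.13 (SE 0.33, edgeR adjusted p = 0.0770). DESeq2 (adjusted p = 0.0126) and voom (adjusted p = 0.0369) called it.

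Under the male label the level of *Cd244a* in order of library number was 2.66, 0.311, 3.76 and 0.887 CPM with TauT and 6.68, 8.83, 5.82 and 16.9 CPM without it. Under the female label it was 2.24, 1.91 and 3.32 CPM with TauT and 6.55, 7.82, 28.9 and 14.1 CPM without it. The genotypes did not overlap, with every TauT-/- library above every TauT+/+ library, as was so for 0.692% of all tested genes. *Cd244a* was higher in TauT-/- cells, at 12.0 ± 7.91 CPM (SD, n = 8) against 2.16 ± 1.24 CPM (SD, n = 7), with a fitted log2 fold change of 2.41 (SE 0.50, edgeR adjusted p = 0.0397). The call was close to the threshold, and in fits without 1 library the log2 fold change ran from 2.16 to 2.71 while the adjusted p reached 0.0963 and the call held in 4 of 15 fits. It was lost without the first male-labelled library of each genotype (log2 fold change 2.64, edgeR adjusted p = 0.0770), without the first female-labelled ones (2.50, adjusted p = 0.0962) and without the 3 libraries whose sex-linked genes contradicted the label (2.77, adjusted p = 0.156).

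*Cd84*, a self-binding receptor of myeloid cells, platelets and lymphocytes, had the most reads of the family, 94498 over the 15 libraries. It ranged from 20.5 to 122 CPM (median 93.5) in TauT+/+ and from 94.8 to 309 CPM (median 168) in TauT-/- libraries. The genotypes overlapped, with 4 of 8 TauT-/- libraries above the highest TauT+/+ library. The mean was 89.6 ± 36.1 CPM (SD, n = 7) against 179 ± 77.6 CPM (SD, n = 8), and the fitted log2 fold change was 0.94 (SE 0.32, edgeR adjusted p = 0.106). DESeq2 called it with an adjusted p of 0.0363, and voom did not (adjusted p = 0.0557).

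*Ly9* (CD229), a self-binding receptor best known from lymphocytes, ranged from 0.578 to 37.5 CPM (median 6.25) in TauT+/+ and from 9.89 to 171 CPM (median 16.9) in TauT-/- libraries. The highest value of each genotype came from TauT+/+ female 3 and TauT-/- female 4, as for *Slamf7* and for the macrophage gene *Adgre1*. Over the macrophage list as a whole, TauT+/+ female 3 stood less apart. The mean log2 level of the list was 7.08 there, 6.92 in TauT+/+ female 2 and 7.70 in TauT-/- female 2. TauT+/+ female 3 was still the highest TauT+/+ library by this mean, and TauT-/- female 4 was the highest of all libraries. In TauT-/- female 4 *Ptprc* was also above every TauT+/+ library. *Ptprc* was at 124 CPM in TauT+/+ female 3, against a TauT+/+ median of 133 CPM. The log2 fold change of *Ly9* was 1.73 (SE 0.75, edgeR adjusted p = 0.181). It was 0.96 without TauT-/- female 4, which held 57.1% of the summed TauT-/- level, and 2.35 without TauT+/+ female 3.

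*Slamf9*, a member without tyrosine motifs that is known from macrophages and dendritic cells, had 3.93 to 31.7 CPM (median 21.9) in TauT+/+ and 16.9 to 48.2 CPM (median 32.9) in TauT-/- libraries. The log2 fold change was 0.68 (SE 0.36, edgeR adjusted p = 0.266), and 4 of 8 TauT-/- libraries lay above the highest TauT+/+ library. Reads of 2 members were at trace level. *Slamf6* had 77 reads in all, 0 to 25 in a library, and a log2 fold change of 0.49 (SE 0.77, edgeR adjusted p = 0.734). *Slamf1*, the CD150 of stem cell sorting, had 14 reads in all, with 9 libraries at 0 and at most 5 reads in a library, and was not tested.

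*Slamf8* encodes a macrophage protein known to limit the production of reactive oxygen by phagocytes. Under the male label its level in order of library number was 1.35, 3.42, 0.479 and 0.928 CPM with TauT and 0.0736, 0.471, 0.641 and 0.364 CPM without it. Under the female label it was 2.18, 2.07 and 1.70 CPM with TauT and 0.0524, 0.528, 0.764 and 9.85 CPM without it. In 4 of 8 TauT-/- libraries *Slamf8* was below the lowest TauT+/+ library, and in TauT-/- female 4 it was above the highest. These values rest on 1 to 308 reads in a library.

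The mean of *Slamf8* over TauT+/+ libraries was 1.73 ± 0.96 CPM (SD, n = 7), and over TauT-/- libraries it was 1.59 ± 3.35 CPM (SD, n = 8), and the log2 fold change was −0.90 (SE 0.91, edgeR adjusted p = 0.573). Without TauT-/- female 4 the TauT-/- mean was 0.413 ± 0.271 CPM (SD, n = 7) and the log2 fold change −2.06 (edgeR adjusted p = 0.0791). Voom, which gave deviating libraries less weight, fitted −1.90 (adjusted p = 0.0525). The fitted value was −1.99 (SE 1.10) for male-labelled and 0.50 (SE 1.17) for female-labelled libraries, and −2.16 for the latter without TauT-/- female 4.

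**Figure D2:**
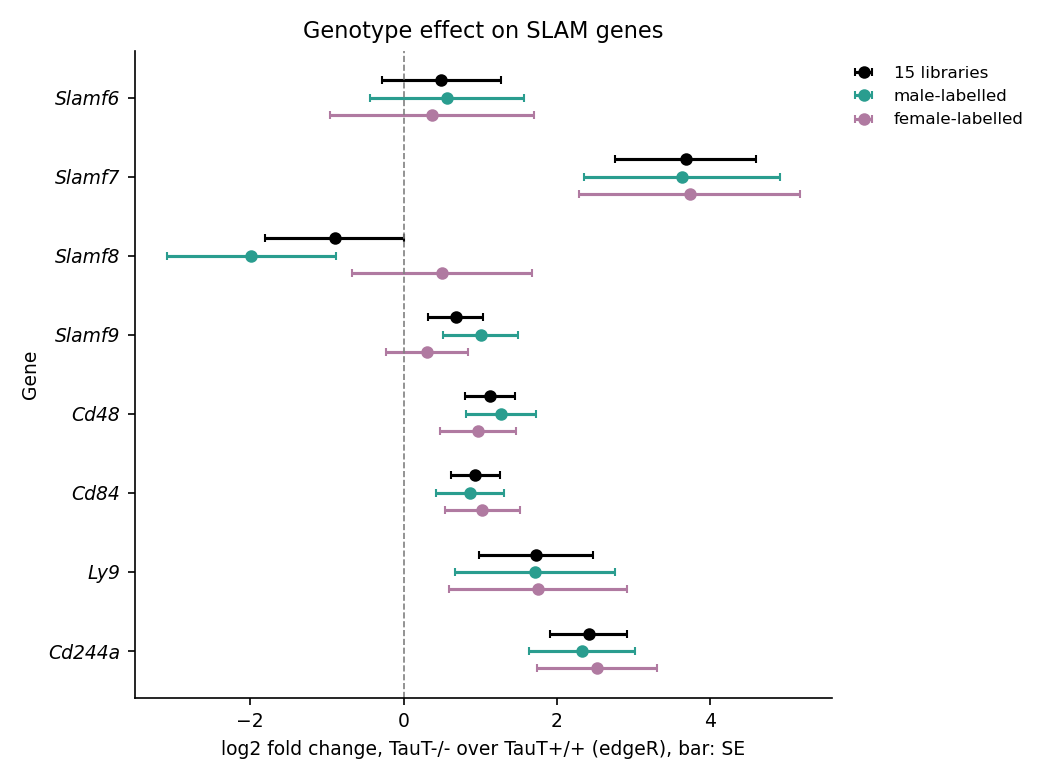
Fitted log2 fold change of TauT-/- over TauT+/+ cells (edgeR, bars are SE) for 7 members and *Cd244a*, over the 15 libraries and within each sex label. *Slamf7* lies farthest to the right (3.68 over 15 libraries) and *Slamf8* alone lies left of 0, except within the female label (0.50).

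Within a sex label edgeR called 0% of the tested genes under the male label and 0% under the female label, and so no member. At an unadjusted p under 0.05, 1483 genes passed under the male label and 2518 under the female label. DESeq2 called 85 of 17087 genes under the male label and 424 of 15756 under the female label. Among the latter were *Slamf7* (adjusted p = 0.0496) and *Cd244a* (adjusted p = 0.0300). The genotype effect was not shown to differ between the labels for any member, with 0% of genes called (242 at an unadjusted p under 0.05, and 2 called by DESeq2). The largest difference among members was in *Slamf8*, whose female effect minus male effect was 2.49 (SE 1.61, edgeR adjusted p = 1.00).

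As a share of reads, with no account of gene length, the members were distributed as follows. The sum of the 8 members was 32.2 to 207 CPM (median 171) in TauT+/+ and 158 to 869 CPM (median 275) in TauT-/- libraries. *Cd84* supplied 44.5% to 70.2% of it in TauT+/+ and 35.6% to 69.7% in TauT-/- libraries. *Slamf7* supplied 0.208% to 7.57% (median 0.778%) in TauT+/+ and 2.22% to 30.7% (median 5.23%) in TauT-/- libraries. *Slamf8* supplied 0.315% to 10.7% (median 0.978%) in TauT+/+ and 0.0280% to 1.13% (median 0.180%) in TauT-/- libraries.

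Per kb of exon, the median level over the 15 libraries was highest for *Cd48* (19.6 CPM per kb), followed by *Cd84* (14.7), *Slamf9* (11.6), *Ly9* (3.61), *Cd244a* (1.18), *Slamf7* (1.17), *Slamf8* (0.23), *Slamf6* (0.00639) and *Slamf1* (0). The order of neighbours held in 13 of 15 libraries for *Cd48* over *Cd84* and for *Cd84* over *Slamf9*, and in 14 of 15 for *Slamf9* over *Ly9* and for *Ly9* over *Cd244a*. *Cd244a* was above *Slamf7* per kb in 8 of 15 libraries, 6 of them TauT+/+, so their medians did not separate them. *Slamf7* was above *Slamf8* per kb in 2 of 7 TauT+/+ and in 8 of 8 TauT-/- libraries.

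The members are also given relative to *Ptprc*, as a description. *Ptprc* itself had a log2 fold change of 0.91 (SE 0.34, edgeR adjusted p = 0.129). *Cd84* was at 63.3 to 88.7 CPM per 100 CPM of *Ptprc* in TauT+/+ (median 73.3) and at 53.8 to 97.4 in TauT-/- libraries (median 80.9), and *Slamf9* at 13.8 to 25.6 (median 14.8) and 8.30 to 17.2 (median 15.0). Of the 8 TauT-/- libraries, 2 were below and 1 was above the TauT+/+ range for *Cd84*, and 3 were below it for *Slamf9*. *Cd48* was at 12.2 to 22.9 (median 14.8) in TauT+/+ and 14.6 to 23.9 (median 19.1) in TauT-/- libraries, 2 of them above the TauT+/+ range.

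Relative to *Ptprc*, *Slamf7* had a median of 0.799 in TauT+/+ (0.239 to 12.7) and 6.73 in TauT-/- libraries (2.26 to 84.0). Of the 8 TauT-/- libraries, 2 were above the highest TauT+/+ library, which was TauT+/+ female 3. *Ly9* had a median of 3.81 in TauT+/+ (2.07 to 30.3) and 8.82 in TauT-/- libraries (5.46 to 53.9), with 1 of 8 TauT-/- libraries above the highest TauT+/+ library. *Cd244a* had a median of 1.44 in TauT+/+ (1.06 to 2.68) and 4.57 in TauT-/- libraries (2.61 to 10.7), with 7 of 8 TauT-/- libraries above the highest TauT+/+ library. *Slamf8* had a median of 1.29 in TauT+/+ (0.324 to 12.3) and 0.237 in TauT-/- libraries (0.0364 to 3.10), with 7 of 8 TauT-/- libraries below the lowest TauT+/+ library, TauT-/- female 4 being the exception. *Adgre1* was at 889 CPM per 100 CPM of *Ptprc* in TauT+/+ female 3 and at 1063 in TauT-/- female 4, against 110 to 251 in the other libraries.

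**Figure D3:**
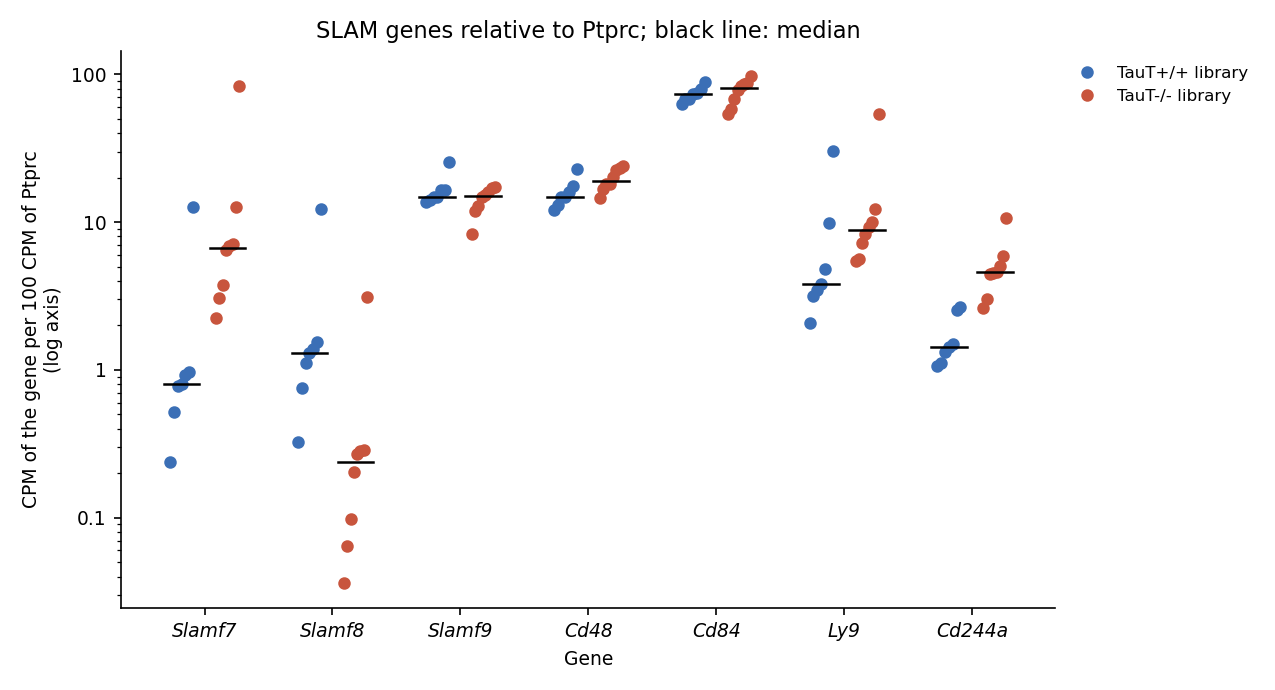
CPM of 6 members and *Cd244a* per 100 CPM of *Ptprc* (log axis) in each library, TauT+/+ in blue and TauT-/- in red, with medians as black lines. *Cd84* (medians 73.3 and 80.9) and *Slamf9* (14.8 and 15.0) have the closest medians of the genes named here, *Slamf7* (0.799 and 6.73) and *Cd244a* (1.44 and 4.57) lie higher in TauT-/- and *Slamf8* (1.29 and 0.237) lower.

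With the mean log2 level of the macrophage list as a covariate, the fitted log2 fold change was 2.35 for *Slamf7*, 1.80 for *Cd244a*, 0.59 for *Cd48*, 0.49 for *Ly9*, 0.36 for *Cd84*, 0.02 for *Slamf9*, −0.57 for *Slamf8* and −0.50 for *Slamf6*, and none of these was called by edgeR (lowest adjusted p 0.113, for *Cd244a*). This fit cannot separate the number of macrophages from expression per cell, since 20 of the 22 tested genes of the list had a positive log2 fold change themselves. The covariate was also lowest in TauT+/+ male 2, at 4.19, against 5.76 in the next library. The part of macrophages in the levels of the members was therefore not tested.

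The SLAM adaptors and partners were a list of 23 genes, of which 19 were tested, 16 with a positive and 3 with a negative log2 fold change (median 0.65, against −0.02 over all tested genes). *Cd244a* was called higher and no other gene of the list was called by edgeR, while 11 of the 19 had an unadjusted p under 0.05 (23.6% of all tested genes) and DESeq2 called 7 (12.4% of all its genes). *Sh2d1a*, the adaptor SAP of lymphocytes, had 0 reads in all 15 libraries. *Sh2d1b1*, which encodes EAT-2, had 0.311 to 3.10 CPM (median 2.07) in TauT+/+ and 1.59 to 18.8 CPM (median 4.44) in TauT-/- libraries (log2 fold change 1.50, SE 0.53, edgeR adjusted p = 0.115), with 6 of 8 TauT-/- libraries above the highest TauT+/+ library. The related adaptor gene *Sh2d1b2* had 1 read in all.

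The phosphatases that bind the same tyrosine motifs were present in all libraries. *Ptpn6* had 74.8 ± 30.6 CPM (SD, n = 7) with TauT and 116 ± 39.0 CPM (SD, n = 8) without it (log2 fold change 0.65, SE 0.33, edgeR adjusted p = 0.243). *Inpp5d* had 70.0 ± 28.0 CPM (SD, n = 7) and 124 ± 40.4 CPM (SD, n = 8) in the same order (log2 fold change 0.82, SE 0.31, edgeR adjusted p = 0.135). These 2 genes and *Sh2d1b1* stayed below the threshold with edgeR, and DESeq2 called *Sh2d1b1* (adjusted p = 0.0305).

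The genes between the members or within 250 kb of one were compared in the same way. Of 64 such genes in the counts, 30 were tested, and 0 were called by edgeR, 5 by DESeq2 (which called 12.4% of all its genes) and 2 by voom (7.67% of all genes). Their log2 fold changes were positive for 15 and negative for 15, with a median of 0.00 and a range of −1.88 to 1.03. Their lowest edgeR adjusted p was 0.0561, against 0.0597 among the 7 tested members and 0.0397 for *Cd244a*. Of the 9 SLAM genes, 8 lie in the same stretch with the values given above and the ninth, *Slamf1*, was not tested. Of these 30 genes, 9 had an unadjusted p under 0.05, against 23.6% of all tested genes.

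**Figure D4:**
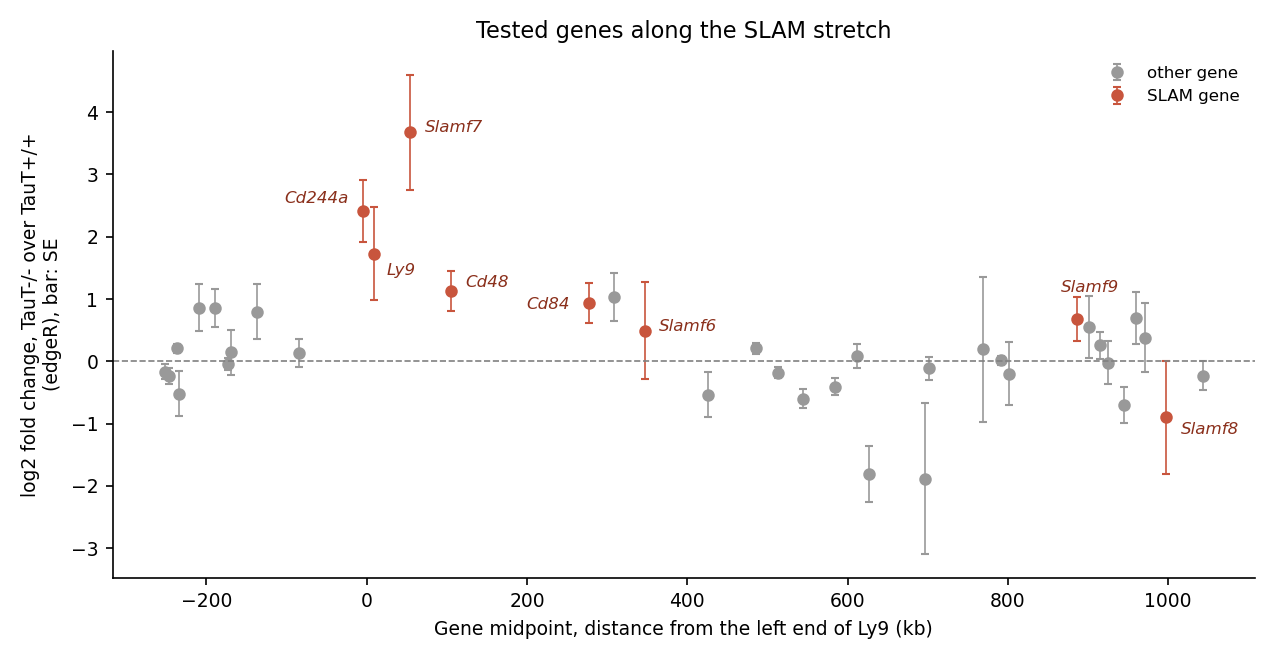
Fitted log2 fold change of TauT-/- over TauT+/+ cells (edgeR, bars are SE) for the tested genes of the stretch, against the distance of each gene's midpoint from the left end of *Ly9*. SLAM genes (red) near the left of the stretch reach 3.68 (*Slamf7*), and *Slamf8* lies at −0.90. The 30 other genes (grey) have a median of 0.00 and range from −1.88 to 1.03.

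For each of the 6 members with a mean of at least 1 CPM, the 3 tested genes most like it were taken from 13194 genes by Pearson correlation of log2(CPM + 0.5) over the 15 libraries, which share their depth and composition. *Cd48* was followed most closely by *Fcer1g* (r = 0.989), the signalling chain of Fc receptors, then *Plek* and *Lpxn*. *Cd84* was followed by *Nckap1l* (r = 0.984), *Laptm5* and *Mpeg1*, and *Slamf9* by *Hcls1* (r = 0.971), *Cd52* and *Gmfg*, all known from blood cells. *Ly9* was followed by *Rnf128* (r = 0.951), *Hmox1* and *Pik3r5*. *Slamf7* was followed by *Pkib* (r = 0.960), an inhibitor of protein kinase A, and by *Galns* and *Vac14*, which act in lysosomes and endosomes. *Slamf8* had the weakest likeness of the 6, with *Ppp1r15a* (r = 0.926), *Ly96* (r = 0.889), the co-receptor of TLR4, and *Fuom* (r = 0.886).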

How the data were processed

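The authors made libraries from 1 ng of RNA of cultured MSCs by oligo-dT priming with full-length cDNA amplification, trimmed reads with fastp 0.23.1, mapped them with STAR 2.7.9a to GRCm39 with GENCODE M31 and counted them by strand with featureCounts (Subread 2.0.1). The deposited values are raw counts of 56832 genes in 15 columns, and 0 columns lacked a sample. Whether the kit marks strand is not stated. The test was that of edgeR 4.0.16 in R 4.3.3 (TMM, filterByExpr, quasi-likelihood, sex label and genotype in the model). CPM are counts scaled by TMM. The biological coefficient of variation was 0.482. Each count carries amplification error beside counting error. Contrasts within a sex label used 1 term per group. SE is the fitted log2 fold change over the root of F. DESeq2 1.42.0 and limma 3.58.1 (voom with quality weights) were alternatives, as were other scalings and filters, a replicate block, a macrophage covariate (mean of 22 genes) and leaving out libraries. The edgeR and DESeq2 fits were also run on simulated counts. The simulated libraries were drawn independently, so that run gives no error rate for these data, where some libraries were nearly alike. Positions and sequences come from GRCm39 with GENCODE M39. The members and lists were chosen with earlier results of these data known. Named genes were the members, *Cd244a*, *Slc6a6*, partners and neighbours past the threshold with *Sh2d1a*, *Sh2d1b1*, *Ptpn6* and *Inpp5d*, the 3 genes most like each member and the defining markers. *Cd68*, *Sh2d1b2* and the antisense genes were named after their values were seen. Other marker lists (osteoclast, neutrophil, dendritic cell, mast cell, megakaryocyte, T, NK, B and plasma cell, progenitor, erythroid and endothelial) were summed, and none held a called gene. Some markers and 7 of the 9 promoter windows are not reported here.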

Additional observations from a re-analysis of the deposited data

Results flagged for a closer look

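Of 27 groups of 4 libraries (9 SLAM genes in 3 groups), 6 held a library that stood apart from the others of its group by the 95% critical value of Dixon's ratio, the gap to the nearest library over the range of the group. The rate of about 1 in 20 groups flagged by chance holds for normally distributed values, whereas CPM were used here without a log. The 9 genes also share the same libraries, and 1 group was at 0 throughout and could not be flagged. A group with reads in only 1 library has a ratio of 1 by construction. The number of flags can therefore not be read against that rate. The TauT+/+ female group, with 3 libraries, was left out. TauT+/+ female 3, at 15.7 CPM of *Slamf7* against 1.55 CPM for the next library of its group, could not be flagged. TauT-/- female 4 was high in *Slamf7* (ratio 0.904, 267 CPM against 34.4 for the next library), in *Slamf8* (ratio 0.927, 9.85 against 0.764 CPM) and in *Ly9* (ratio 0.957, 171 against 18.9 CPM). TauT-/- male 4 was high in *Slamf7* (ratio 0.838, 24.1 against 8.14 CPM). TauT+/+ male 3 was high in *Slamf6* (ratio 0.953, 0.202 against 0.0222 CPM), and TauT+/+ male 4 was the only library of its group with any read of *Slamf1* (ratio 1, 0.0269 CPM), both at trace level.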

How the results depend on the processing

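The number of members called by edgeR (0 of 7 tested) became 3 with DESeq2, 2 with voom (which called 7.67% of all genes) and 1 with a replicate block (*Slamf7*, log2 fold change 3.15, adjusted p = 0.0456), and ran from 0 to 1 without 1 library each (*Slamf7*, without TauT+/+ male 3 or TauT-/- female 1). Under the female label it became 1 with DESeq2 and stayed 0 in the other fits, and under the male label and for the difference between labels it was 0 in all fits run. The partners called (1, *Cd244a*) became 7 with DESeq2, 4 with voom and 0 with the replicate block (*Cd244a*, log2 fold change 2.49, adjusted p = 0.0594), with the macrophage covariate, without the first male-labelled or the first female-labelled library of each genotype and without the 3 libraries that went against the sex label, and ran from 0 to 2 without 1 library each. The neighbours called (0) became 5 with DESeq2, 2 with voom, 1 with at least 10 counts in every library and 2 with no sex term. Without 1 library each they ran from 0 to 3. Rates of calls over all genes are given here only for the main edgeR fits, DESeq2 and voom. Counts from the other fits, the replicate block among them, can therefore not be read against such a rate.

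The sign of the fitted log2 fold change turned for *Slamf6* with the macrophage covariate (−0.50) and without TauT-/- male 3 (range without 1 library each −0.16 to 1.40), and under the female label for *Slamf8* with the replicate block (−2.41) and without TauT-/- female 4 (range −2.16 to 0.99), for *Ly9* without TauT-/- female 4 (range −0.079 to 3.43) and for *Slamf9* with the replicate block (−0.020). The cause was not tested. For *Slamf7*, *Slamf9*, *Cd48*, *Cd84*, *Ly9* and *Cd244a* the fitted value over both labels was positive, and for *Slamf8* negative, in every fit run. Without the 3 libraries against the sex label the log2 fold change was 4.98 for *Slamf7* and 2.77 for *Cd244a* (edgeR adjusted p = 0.156 for both). Without the first male-labelled library of each genotype *Slamf7* was at 3.95 and *Cd244a* at 2.64, and without the first female-labelled ones at 3.68 and 2.50. With at least 10 counts in every library *Slamf6*, *Slamf7* and *Slamf8* were not tested. Same-numbered libraries of the 2 genotypes correlated from −0.04 to 0.62 in their deviations. Of 7 pairs 5 were above 0.1, and since a pairing was to be used only where every pair was, the numbers were not taken to pair the samples, although 11 of 14 libraries correlated best with their own number, a hint from the data that they may. Low read counts limit *Slamf1* and *Slamf6* under both sex labels, with at most 5 and 25 reads in a library. They also limit *Slamf8*, which had 1 read in TauT-/- female 1 and 6 in the deeper TauT-/- male 1.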
